A study of Mus musculus with 8 samples.

Results

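Reads of the ribosomal RNA genes collect at one place of the mouse reference genome, a 10 kb window of chromosome 17 (39840001 to 39850000, build GRCm38) that holds the ribosomal RNA pseudogene Rn18s-rs5 (39846354 to 39848202) and the near end of the long noncoding RNA gene AY036118 (39848112 to 39898385). All calls at CpG cytosines inside this window or inside either gene span were taken. These were 9254 of the 1849087 calls in the series, of which 9247 lay in the window, 1998 in Rn18s-rs5 and 1422 in AY036118, with 87 calls in both genes. Both genes were chosen by their levels at 12 h and 0 h, because they gained far less than their libraries, so every 12 h and 0 h level below is a description without a test.

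Ribosomal DNA encodes a long precursor that RNA polymerase I transcribes in the nucleolus and that is cut into 18S, 5.8S and 28S rRNA, with an external transcribed spacer before 18S and an internal spacer after it. Mammalian genomes carry many near-identical copies in tandem, most of which are not placed in the assembly, and part of them is normally silent and methylated at CpGs. Calls placed on the chromosome 17 copy can therefore come from any copy in the cell, and neither the single copies nor a mixture of methylated and unmethylated ones can be told apart here.

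The cells were mouse embryonic stem cells in which the genes TET1, TET2 and TET3 were inactivated. TET enzymes oxidise 5-methylcytosine to 5-hydroxymethylcytosine (5hmC). A PiggyBac transposon in these cells carried the catalytic domain of mouse TET3, without the rest of the protein, under doxycycline control and linked to an mCherry reporter, and all cells grew with 50 µg/ml ascorbate. The groups were 3 libraries that had no doxycycline (0 h, replicates A, B and C), 2 that had 1 µM doxycycline for 6 h (A and B) and 3 that had it for 12 h (A, B and C), all from this one rescued line. APOBEC-coupled epigenetic sequencing shields 5hmC with glucose and deaminates the other cytosines, so an undeaminated CpG call stands for 5hmC or for a cytosine the deaminase missed. The level is the percentage of calls that are undeaminated. Whether the libraries came from separate cultures is not stated, so p-values measure only the spread between these libraries, which may be technical.

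The libraries held 75023 to 485941 calls, and their levels were 0.899 to 1.26% at 0 h, 6.27 and 6.57% at 6 h and 22.3 to 26.8% at 12 h. Within the window the depth was 445 to 812 calls at 0 h, 677 and 1667 at 6 h and 596 to 2256 at 12 h. The 95% Wilson intervals given below cover counting error only, and calls on one read are not independent.

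The window was the second deepest of 217507 covered windows of 10 kb, with 1088 times the mean number of calls. Its 9247 calls came from 731 reads and lay between 39842565 and 39848823, a stretch of 6259 bases. The first 2564 and the last 1177 bases of the window had no call. The 10 kb before the window held 1 call and the 10 kb after it 4 calls, so the pile ends sharply on both sides. No other gene of the annotation overlaps the window. The calls marked 601 CpG sites, 500 of them read on both strands. Per 100 bases there were 9.98 sites in the stretch before Rn18s-rs5, 7.63 inside it and 13.2 after it.

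AY036118 owes its calls to the same pile. Of its 1422 calls 1415 (99.5%) lay in the first 712 bases of a span of 50274 bases, and the other 7, all deaminated, were scattered over the rest. RefSeq places the start of this minus-strand gene at the far end. The 300 bases around that start begin 49513 bases beyond the last call of the pile. The promoter sequence is shown because it sets the gene's own start against the CpG-rich pile. It has 250 bases before and 50 bases after the start (chr17:39898336-39898635, GRCm38.p6, minus strand), with its CpG in capitals.
AY036118 promoter: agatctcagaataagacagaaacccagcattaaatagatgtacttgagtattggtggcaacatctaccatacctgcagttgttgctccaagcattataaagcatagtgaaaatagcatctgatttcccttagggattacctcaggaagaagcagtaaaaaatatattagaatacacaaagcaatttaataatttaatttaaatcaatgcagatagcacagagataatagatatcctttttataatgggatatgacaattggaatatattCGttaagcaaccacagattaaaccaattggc
It holds 1 CpG in 300 bases and received 0 calls. Of 32851 RefSeq promoter windows of this length, 14.1% hold at most 1 CpG and the median is 7. The values of AY036118 are therefore values of the end of the pile, and its own start was not measured.

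After 12 h of the TET3 catalytic domain few calls in the rRNA copy were undeaminated. In the window, 4.78% ± 1.29 of calls were undeaminated at 12 h and 2.70% ± 1.63 at 0 h (SD, n = 3 each), where the whole libraries lay at 22.3 to 26.8% at 12 h and 0.899 to 1.26% at 0 h. The 12 h libraries gave 3.68% (interval 2.98 to 4.54%), 4.46% (3.66 to 5.42%) and 6.21% (4.54 to 8.44%) for A, B and C. The 0 h libraries gave 4.43% (3.22 to 6.08%), 2.47% (1.39 to 4.37%) and 1.20% (0.612 to 2.36%). The groups overlap, since untreated A lies above 12 h A. The level in the window was 0.196 ± 0.0336 times that of its library at 12 h and 2.63 ± 2.06 times at 0 h (SD, n = 3 each), so the copy was far below its libraries at 12 h and, in untreated cells, 0.960 to 4.93 times their level.

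At 6 h both libraries were low, with 1.18% (0.600 to 2.31%) in A and 1.14% (0.731 to 1.77%) in B, 0.180 and 0.182 times the levels of their libraries. The 0 h libraries helped to choose the genes, so the comparison of 6 h with 0 h is also a description and no p is given for it. In a limma fit over the 14 windows of 10 kb that held 10 calls or more in each library, the level minus the library level at 6 h differed by -7.21 ± 1.41 percentage points from that at 0 h (SE). Of the windows in the fit, 7.14% were called lower, which is this window alone, and 0% higher. That call was not made without 6 h A, 6 h B or 12 h B (differences of -7.14, -7.40 and -7.21 points), and nothing is read from it. Part of this difference comes from 0 h, where the window lay 1.57 ± 1.82 points above its libraries (SD, n = 3). Within the 3 sequencing runs the level of the window at 6 h minus that at 0 h was -3.23, 0.441 and -2.78 points, so the second run did not share the direction of the pooled levels.

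**Figure D1:**
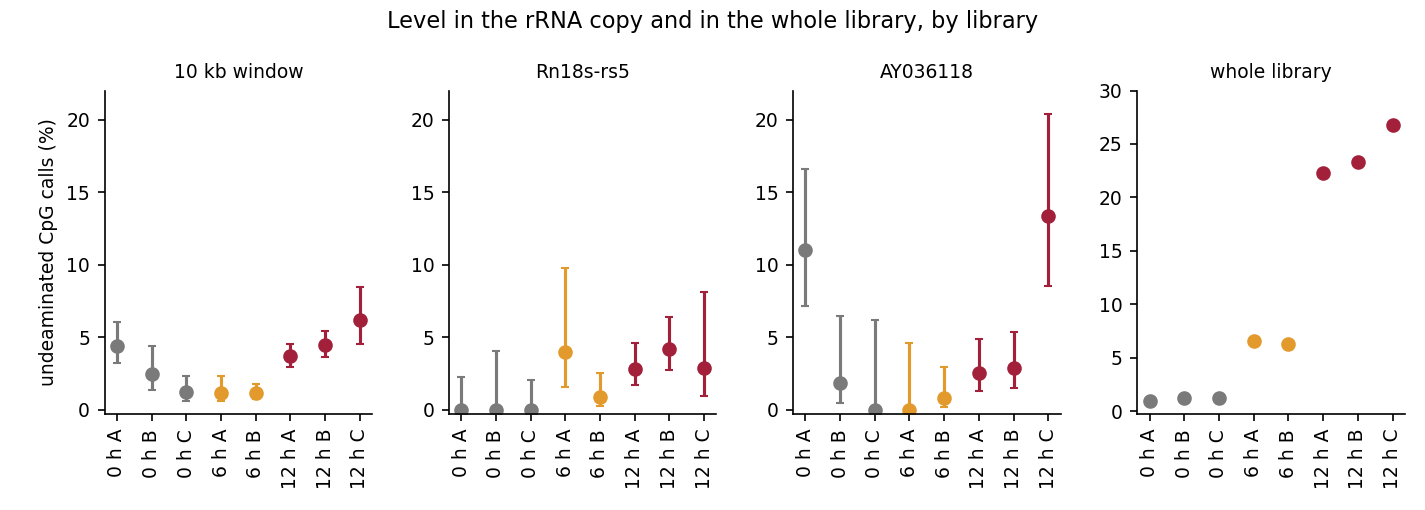
Percentage of undeaminated CpG calls in each of the 8 libraries, in the order 0 h, 6 h and 12 h, for the 10 kb window, Rn18s-rs5, AY036118 and the whole library (whose axis runs higher); bars are 95% Wilson intervals. The window stays between 1.14 and 6.21% while the whole libraries reach 22.3 to 26.8% at 12 h.

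Rn18s-rs5, a pseudogene that spans a copy of the 18S rRNA of the small ribosomal subunit, showed the plainest order of groups. It had 0 undeaminated calls of 166, 91 and 181 in the untreated libraries A, B and C. Together these are 0 of 438 calls, which allows a level of up to 0.685%. At 6 h it had 4 of 101 calls (3.96%) in A and 3 of 344 (0.872%) in B. At 12 h it had 15 of 533 (2.81%), 20 of 478 (4.18%) and 3 of 104 (2.88%) in A, B and C, a mean of 3.29% ± 0.771 (SD, n = 3). Every 12 h library lies above every 0 h library, and 6 h A lies among the 12 h libraries.

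The fit over genes, which shares these 0 h libraries, is given in the same way. Of the 346 genes that held 10 calls or more in each library, 0% passed as higher and 0% as lower at 6 h against 0 h by limma, with 13 and 10 at an unadjusted p under 0.05. The deviation of Rn18s-rs5 from its libraries differed by -3.69 ± 1.09 points (SE) between 6 h and 0 h, and that of AY036118 by -11.6 ± 4.36 points (SE).

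AY036118, as the end of the rRNA copy, gave no stable direction. Its levels were 2.51% (8 of 319 calls), 2.88% (9 of 313) and 13.4% (17 of 127) in the 12 h libraries A, B and C. They were 11.05% (19 of 172), 1.83% (2 of 109) and 0% (0 of 58, which allows up to 5.17%) in the 0 h libraries. The 6 h libraries had 0 of 80 calls and 2 of 244. One library stands out in each of the outer groups. In 12 h C 10 of the 17 undeaminated calls sat on 1 read, and without it 7 of 108 calls (6.48%) were left, still above A and B. In untreated A 17 of the 19 sat on 1 read, and without it 2 of 152 (1.32%) were left. The means were 6.26% ± 6.18 at 12 h and 4.29% ± 5.92 at 0 h (SD, n = 3 each), and the difference of 1.96 points turned to -1.60 without 12 h C and to -0.184 without untreated C.

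Along the copy, in steps of 500 bases with the calls of a group pooled and at least 20 calls in a step, the 12 h level was lowest at the outer end of the stretch before Rn18s-rs5. The step from 39843001 had 7 of 612 calls undeaminated (1.14%, interval 0.555 to 2.34%) and the next one 3 of 196 (1.53%, 0.522 to 4.40%). The level was highest in the step from 39844501, with 41 of 480 calls (8.54%, 6.36 to 11.4%). There libraries A, B and C gave 7.69, 8.90 and 9.30%, but 18 of the 25 undeaminated calls of B came from 1 read. Without that read B had 7 of 260 (2.69%) and the step 23 of 459 (5.01%), below the 5.85% of the step from 39845501, so its place as the highest rests on 1 read. Inside Rn18s-rs5 the full steps lay between 2.88 and 4.55%, and the last step, from 39848501, reached 6.62% (27 of 408, 4.59 to 9.46%). Most of these values also leaned on single reads. Without 1 read of C the last step had 17 of 389 (4.37%), and C itself fell there from 20.7 to 5.13%. Without 1 read of B each, the step from 39846501 fell from 4.55 to 2.87% and that from 39847501 from 2.88 to 1.80%. The step from 39847001 lost no read and stayed at 2.97%.

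At 0 h the calls were not spread in this way. The step from 39845001 held 27 of the 55 undeaminated calls of the group, on 4 reads, and a level of 17.9% (27 of 151, 12.6 to 24.8%). There the 12 h libraries A, B and C had 2.86, 6.09 and 15% and the untreated ones 14.9, 22.2 and 19.5%. In untreated A and C all undeaminated calls of this step sat on 1 read each. Without reads of at least 50% undeaminated calls, untreated A had 0 of 61 calls, B 8 of 36 and C 0 of 25. The untreated group then had 6.56% in this step and the 12 h group 3.87%, so of the untreated libraries only B stayed high. The step from 39848501 held 19 more, of which 17 were on 1 read of untreated A. In 7 of the 12 steps with at least 20 calls the untreated libraries had 0 undeaminated calls. At 6 h no step was above 2.86%.

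**Figure D2:**
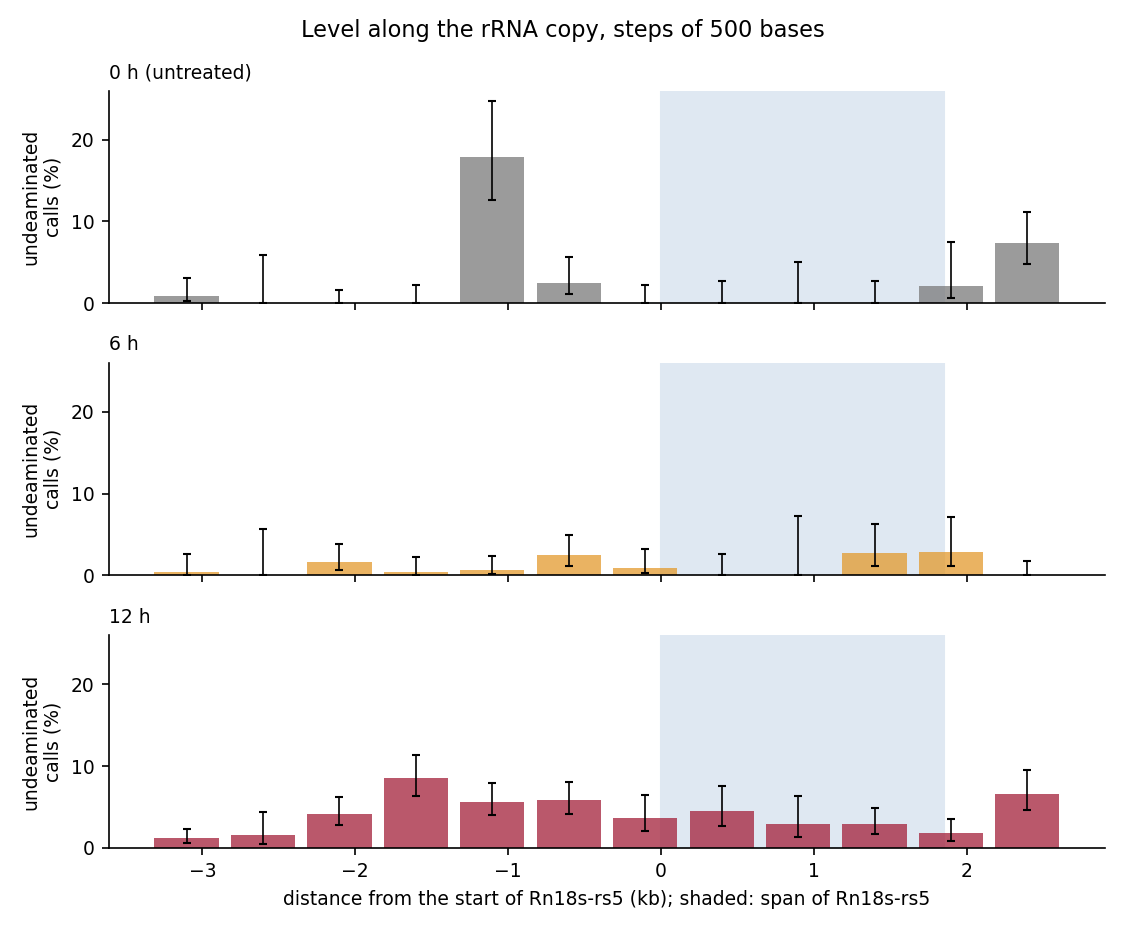
Percentage of undeaminated calls in steps of 500 bases along the rRNA copy, pooled within each time; the horizontal axis is the distance from the start of Rn18s-rs5 in kb, the shaded band is Rn18s-rs5, and bars are 95% Wilson intervals. At 0 h the step around -1.1 kb stands at 17.9% and most others at 0%. Without reads of at least 50% undeaminated calls that step has 6.56%. At 12 h every step shown has undeaminated calls, up to 8.54%, or 5.01% there without 1 read.

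Single CpGs could be followed because the copy is so deep. Of 239 sites with at least 10 calls over the 12 h libraries, 142 had no undeaminated call, 78 had 1 and 19 had at least 2. Only the site at 39848552 had undeaminated calls in all 3 libraries (3 of 17, 17.6%, exact interval 3.80 to 43.4%), and 12 sites had them in 2 libraries. The highest site, at 39844583, had 3 of 12 (25%, exact interval 5.49 to 57.2%), all from one library. None of these sites had more than 3 undeaminated calls. With a median of 13 calls per site the level of a single CpG is not well bounded, and sites with fewer than 10 calls were not looked at. Whether a few fixed CpGs carried the level at 12 h can therefore not be told. Both strands were low, with 4.22% ± 1.51 on the top strand and 5.39% ± 2.64 on the bottom strand at 12 h (SD, n = 3).

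The read is the molecule, and reads show how the calls were shared out. Among reads with at least 3 CpGs, those without any undeaminated call made up 92.8% ± 4.78 at 0 h (SD, n = 3), 88.8% ± 2.16 at 6 h (n = 2) and 75.5% ± 3.79 at 12 h (n = 3). The share with at least 1 undeaminated call was 22.9, 21.8 and 28.8% in the 12 h libraries A, B and C (40 of 175, 36 of 165 and 15 of 52 reads). It was 10.8, 9.09 and 1.79% in the 0 h libraries (7 of 65, 3 of 33 and 1 of 56 reads) and 12.7 and 9.68% in the 6 h libraries (7 of 55 and 12 of 124). By this measure the 12 h libraries lie above all others, while the 6 h and 0 h libraries overlap.

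Most of the marked reads at 12 h carried little: 47 of 91 had exactly 1 undeaminated call, and at 6 h 13 of 19. Reads with at least 50% of their CpGs undeaminated were rare. There were 0, 4 and 1 in the 12 h libraries A, B and C, 2, 0 and 1 in the 0 h libraries A, B and C, and none at 6 h. These few reads held 48 of 214 undeaminated calls at 12 h (22.4%) and 37 of 55 at 0 h (67.3%). Without them the window had 3.69% ± 0.966 at 12 h and 1.13% ± 1.25 at 0 h (SD, n = 3 each). The 12 h libraries were then at 3.64, 2.75 and 4.68% and the 0 h libraries at 0.906, 2.47 and 0% for A, B and C, and the groups no longer overlapped. This removes reads by their calls and lowers both groups by construction.

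The calls of these 8 reads are printed in order of position along the chromosome, because they show whether such a read is fully or partly undeaminated. A capital Z stands for an undeaminated and a small z for a deaminated CpG.
12 h replicate B, from 39844531, top strand: ZzZzZZZZZZZzZZZZZZZZZ
12 h replicate B, from 39845319, top strand: zzzzzZZZZZZZZZZzzz
12 h replicate B, from 39846839, bottom strand: ZZZZzZz
12 h replicate B, from 39847523, bottom strand: ZZzZZzZ
12 h replicate C, from 39848601, bottom strand: ZzzzZZZZzZZZZzZzzzz
0 h replicate A, from 39845407, bottom strand: ZZZZZZZZzZZZzzzZzzz
0 h replicate A, from 39848501, bottom strand: ZZZZZZZZZZZZZZZZZzzz
0 h replicate C, from 39845236, top strand: zzzzzzZZzZZZZZZz
None was undeaminated throughout. In all 3 reads from untreated cells, where the TET3 domain had not been induced, the undeaminated calls stood mostly in runs with deaminated calls beside them. The 2 reads of the pseudogene, those from 39846839 and 39847523, were both from 12 h. The span read most often, 6 CpGs between 39846418 and 39846482 inside Rn18s-rs5, was seen on 5 reads at 12 h, of which 1 carried a single undeaminated call (zZzzzz), and on 5 reads at 0 h and 1 at 6 h, all of them zzzzzz.

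**Figure D3:**
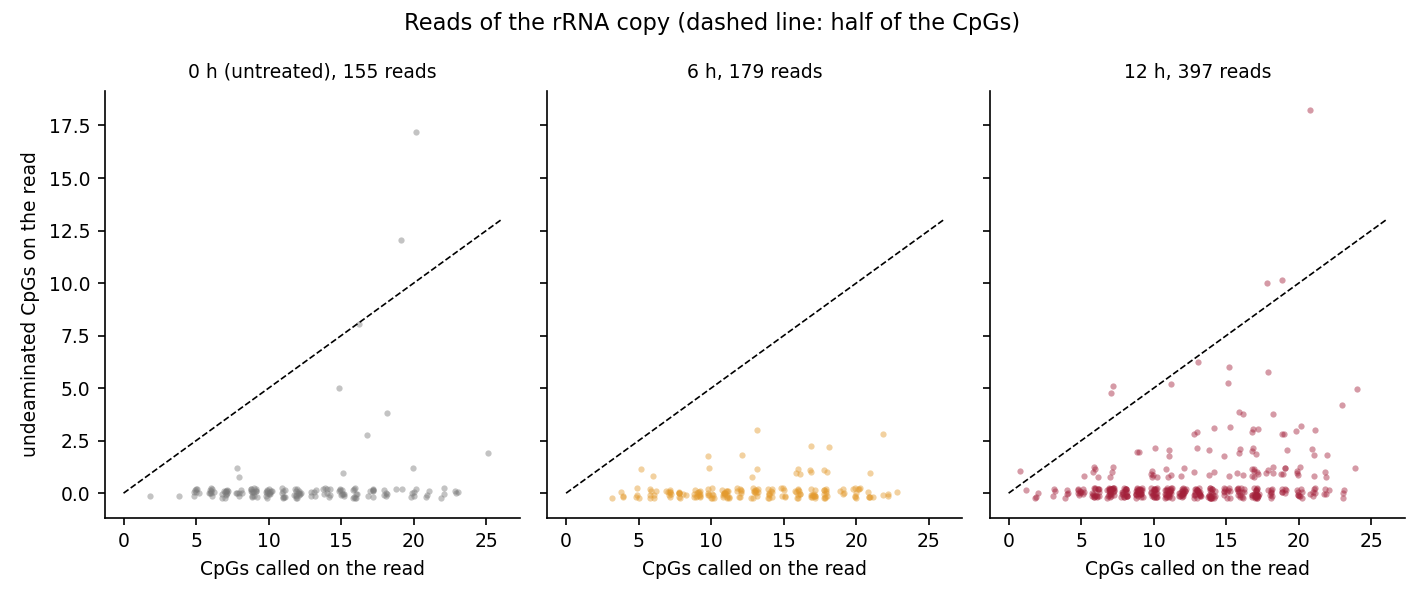
Each point is a read of the rRNA copy, with the CpGs called on it on the horizontal axis and the undeaminated ones on the vertical axis, in panels for 0 h (155 reads), 6 h (179) and 12 h (397); points are shifted by a random fraction of a CpG so that they can be seen. Most reads lie at 0, and at 12 h more reads carry 1 to 3 undeaminated CpGs while few reach the dashed line at 50% of the CpGs.

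Reads of the copy were unusually rich in CpGs. They carried a median of 11 to 13 CpGs in each library, with lower quartiles of 8 to 10 and upper quartiles of 15 to 18, where a read of the whole libraries averaged 2.19 to 2.29. The range was 1 to 24 CpGs in the 12 h libraries and 2 to 25 in the 0 h libraries. Of all reads with at least 11 CpGs in the nuclear genome, 458 of 9100 (5.03%) came from this copy.

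The difference from the rest of the nuclear genome depended on the number of CpGs on the read. Reads of the copy with 1 to 5 CpGs had 2.33% ± 2.19 undeaminated calls at 12 h and those elsewhere 26.03% ± 2.40 (SD, n = 3 each), but only 88 calls stand behind the first value. With 6 to 10 CpGs the level was 2.81% ± 0.872 in the copy (1023 calls) and 22.1% ± 2.37 elsewhere. With 11 to 15 CpGs it was 3.85% ± 2.43 in the copy and 7.95% ± 1.28 elsewhere, and with 16 to 20 CpGs 5.95% ± 2.17 and 4.36% ± 2.40. From 21 CpGs upwards the copy had 1.82% in A and 17.3% in B, no reads in C, and 3.25% ± 0.405 was found elsewhere (SD, n = 3). In B 18 of these 34 undeaminated calls (of 196 calls) sat on 1 read. The copy was thus far below the rest where a read held few CpGs but not where it held 16 to 20. There libraries A, B and C had 5.29, 4.19 and 8.37% in the copy and 2.36, 3.69 and 7.03% elsewhere, so the copy was the higher in each. However, 10 of the 38 undeaminated calls of B (906 calls) and 10 of the 18 of C (215 calls) sat on 1 read each. Without that read the copy was the lower in B and in C, so the order there rests on 1 read in each. This takes a read from the copy only, which lowers the copy by construction, and reads elsewhere were not filtered in this way.

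**Figure D4:**
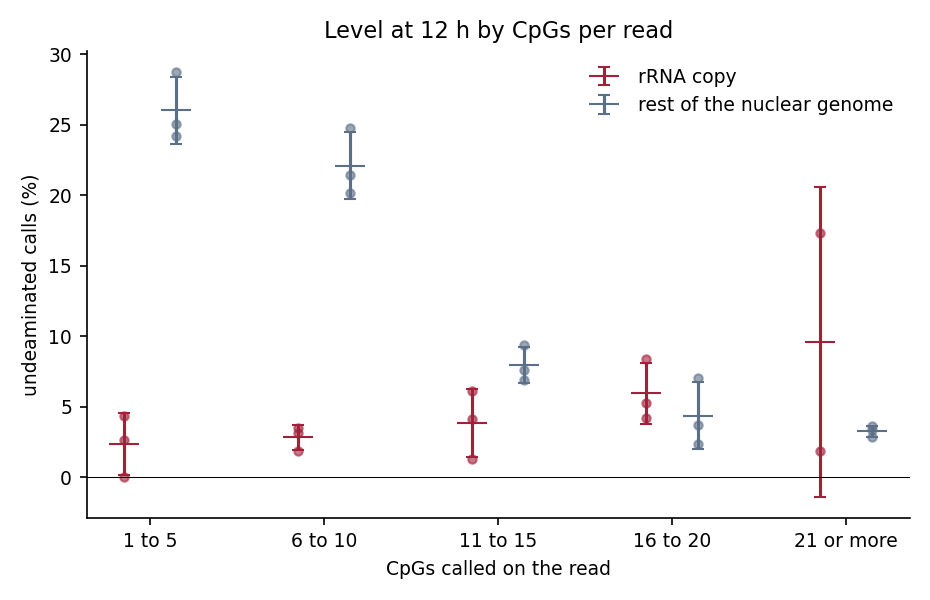
Percentage of undeaminated calls at 12 h by the number of CpGs called on the read, for the rRNA copy and for the rest of the nuclear genome; points are the 12 h libraries, horizontal lines and bars their mean and SD. The copy stays between 2.33 and 5.95% up to 20 CpGs while the rest has 26.03% with 1 to 5 CpGs and 4.36% with 16 to 20.

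Reads elsewhere were then weighted to the exact numbers of CpGs per read in the window, using reads with at least 3 CpGs. The window had 4.77% ± 1.31 at 12 h and such reads elsewhere 9.07% ± 2.62 (SD, n = 3 each), with differences of -3.35, -3.74 and -5.80 points in A, B and C. Against reads more than 1 kb from any end of a protein-coding gene, at 12.0% ± 2.72, the difference was -7.19 ± 1.44 points. Against reads within 1 kb of such an end, at 5.26% ± 2.03, it was -0.483 ± 0.728 points, within the spread of the libraries. For Rn18s-rs5 alone the level of 3.30% ± 0.768 lay -2.98 ± 1.49 points from reads near gene ends and -14.4 ± 3.15 points from those away from them. For AY036118 the level of 6.26% ± 6.17 lay 1.38 ± 3.36 points from reads near gene ends and -1.52 ± 5.53 points from those away from them. From all reads elsewhere it lay -0.559 ± 3.39 points. Its libraries were split: A, B and C lay at -0.370, -0.737 and 5.26 points near gene ends and at -5.66, -3.66 and 4.76 points away from them. In C 10 of the 17 undeaminated calls sat on 1 read. At 6 h the window had 1.18 and 1.14%, below the weighted reads near gene ends at 2.36 and 1.81%, and at 0 h 2.70% ± 1.63 stood beside 0.985% ± 0.309.

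Other deep piles of the genome were also low where their reads held many CpGs. Of 28 windows of 10 kb with at least 200 calls, 6 averaged more than 7 CpGs per read, this one among them with 12.6. The other 5 of these had 2.63 to 13.7% undeaminated calls at 12 h, with 114 to 338 calls each, and 0 of 514 calls at 6 h and 0 of 456 at 0 h. The 20 nuclear windows with fewer CpGs per read had 14.4 to 32.0% at 12 h, and the 2 windows of the mitochondrial genome had 1.02 and 1.64% although their reads also held few CpGs. The split at 7 CpGs per read was chosen after the values were seen. With 27 of 2344 calls at 6 h and 55 of 1921 at 0 h the rRNA copy was the only one of the 6 dense windows with undeaminated calls before 12 h, and it was also by far the deepest of them.

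**Figure D5:**
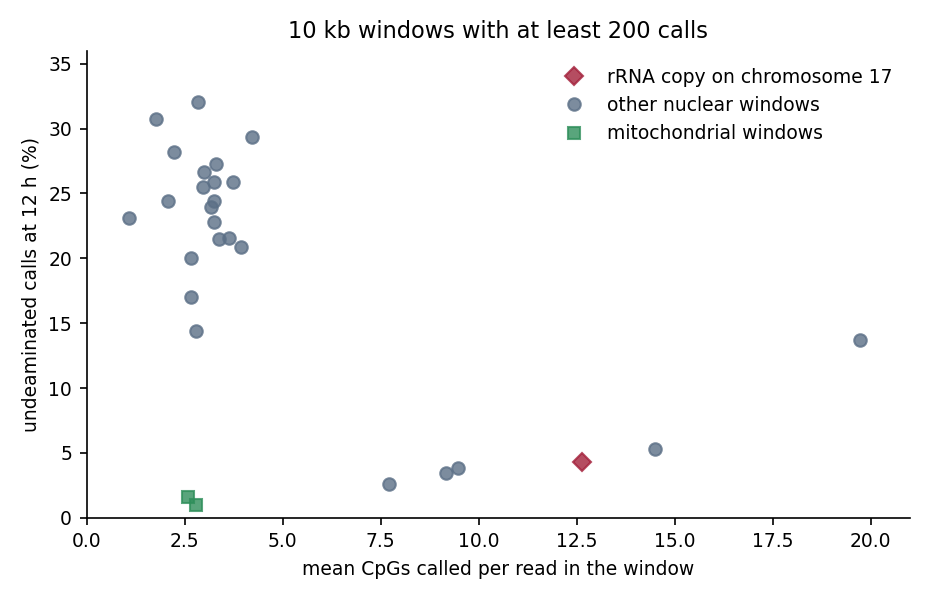
Each point is a 10 kb window with at least 200 calls over the 8 libraries, with the mean CpGs called per read on the horizontal axis and the percentage of undeaminated calls pooled over the 12 h libraries on the vertical axis. The rRNA copy, at 12.6 CpGs per read and 4.32%, lies with the other windows of more than 7 CpGs per read, and the 20 sparser nuclear windows lie between 14.4 and 32.0%.

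The genes most like Rn18s-rs5 over the 8 libraries, by Euclidean distance of level minus library level among 344 genes outside the window, were Filip1l (distance 12.1), Cdk8 (12.9), Cmss1 (13.6), Tafa5 (20.9) and the long noncoding Snhg14 (21.7), where the median distance was 40.6. AY036118 stood at 15.9. Filip1l and Cmss1 overlap and share calls. Both contain the same dense window of those described above, with 783 calls of the 891 of Filip1l and the 926 of Cmss1. Cdk8 contains another, with 246 of its 308 calls. These windows had 5.33 and 3.87% with the 12 h calls pooled. The likeness of these genes is therefore not separate from that of the dense windows, and their levels mix the pile with the rest of the gene. The 12 h levels were 9.30% ± 2.96 in Filip1l, 10.5% ± 2.05 in Cdk8, a kinase of the Mediator complex, and 10.3% ± 2.82 in Cmss1, all above the 3.29% ± 0.771 of Rn18s-rs5 (SD, n = 3 each).

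Other rRNA genes gave few calls. Of 74 annotated rRNA genes 68 had none and besides Rn18s-rs5 only the rRNA genes of the mitochondrial genome had at least 20 calls. The mitochondrial 12S gene mt-Rnr1 had 3.60% at 12 h, from 4 undeaminated calls of 111 (exact limits 0.990 and 8.97%), and none of 27 at 0 h. The 16S gene mt-Rnr2 had none of 262 at 12 h (exact upper limit 1.40%) and none of 39 at 0 h.

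Genes whose products make rRNA were mostly above the copy. Of 46 listed symbols for RNA polymerase I, its factors and rRNA processing, 43 matched an annotated gene, and 42 of these had calls. Their level was 29.4% ± 6.43 at 12 h (322 of 1158 calls) and 2.34% ± 2.02 at 0 h (7 of 256, SD, n = 3 each). At 6 h it was 6.71% ± 0.799 (SD, n = 2). None of the 43 had 10 calls in every library, so 0 were tested singly. Of the 22 with at least 20 calls at 12 h, 2 lay below the 4.32% of the copy, Fbl with 1 of 37 calls (2.70%) and Nsun5 with 1 of 27 (3.70%), both named after their values were seen, and the median was 24.8%. Reads of the listed genes held 2.77 CpGs on average at 12 h, where those of the copy held 12.6 over all libraries, and this difference was not matched. Kdm2b, a histone demethylase that binds CpG islands, had 37 of 150 calls at 12 h (24.7%), Polr1a, the largest subunit of RNA polymerase I, 28 of 88 (31.8%), and Baz2a, a subunit of the nucleolar complex that silences rRNA genes, 13 of 59 (22.03%).

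The number of calls that fell on the copy also differed between libraries. It took 0.496, 0.438 and 0.310% of all calls in the 12 h libraries A, B and C and 0.515, 0.511 and 0.650% in the 0 h libraries. The mean of 0.415% ± 0.0957 at 12 h differed by -0.144 points from the 0.559% ± 0.0790 at 0 h, and no 12 h library reached a 0 h library, but the two-sided exact permutation test gave p = 0.1, the smallest value that 3 against 3 libraries allow (0.2 after Benjamini-Hochberg adjustment over 2 tests). The 6 h libraries had 0.902 and 0.567% (two-sided exact permutation p = 0.4 against 0 h, also 0.4 adjusted; the smallest p for 2 against 3 is 0.2).

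By the run field of the read names, all libraries were sequenced in 3 runs. The 12 h level of the window exceeded the 0 h level by 2.37 and 2.39 points in runs 2 and 3, and differed from it by -6.83 points in run 1 (4.73% at 12 h and 11.6% at 0 h), which held 284 calls at 12 h and 147 at 0 h. In Rn18s-rs5 the difference was 9.73, 2.88 and 2.80 points in the 3 runs, with 0 undeaminated calls at 0 h in each.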

How the data were processed

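Per the file headers, the files deposited by the authors come from the methylation extractor of Bismark 0.22.3 and give a call letter per CpG cytosine and read, Z undeaminated or z deaminated. Per the submitters' processing notes, Trim Galore and Bismark 0.22.3 were used with GRCm38. How reads that match several places were aligned, and whether duplicates were removed, is not given in the sources used here. Keeping 1 of each set of identical reads removed 38 of the 731 reads of the window. Libraries were made from 10 ng of DNA cut to about 300 bp, per the labels' protocols, and sequenced with 150 bp chemistry.

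Gene spans came from a RefSeq table of GRCm38.p6, matched by symbol. Strand was inferred from the order of calls on a read, descending reads being taken as top strand because neighbouring positions 1 base apart had the descending order first in 37156 pairs and second in 1408. Levels are percentages of calls, with Wilson or exact (Clopper-Pearson) intervals. For 0 undeaminated calls the limit is 3 counts of the total. Reads were classed with at least 3 CpGs.

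limma 3.58.1 (R 4.3.3) fitted the level minus the library level over all 8 libraries with 1 factor of 3 times, with weights of n/(p(1-p)) for n calls in a library of level p, with Benjamini-Hochberg adjustment over all genes or windows tested and a threshold of 0.05. It was tested on simulated data with independent calls, which does not cover calls that share a read. Weights make estimates differ from differences of means. Permutation tests used scipy 1.17.1. The members, lists and rules were chosen with earlier results of these data known. Named were both genes, rRNA genes with at least 20 calls, the 5 genes nearest to Rn18s-rs5 and the 3 rRNA machinery genes with most calls. The alternatives left out single libraries, repeated reads, largely or fully undeaminated reads or all but 1 call per read. They also changed weights, scale, minimum, run and pooling.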

Additional observations from a re-analysis of the deposited data

How the results depend on the processing

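The 12 h minus 0 h difference of the window, 2.08 points, ran from 1.33 to 2.94 when single libraries were left out, was 0.680 with 1 call per read and -6.83 in the first run alone. That of Rn18s-rs5, 3.29 points, ran from 2.85 to 3.53, was 5.75 with 1 call per read and 9.73 in the first run. Without reads of at least 50% undeaminated calls it was 2.62 points. That of AY036118, 1.96 points, ran from -1.60 to 5.34 and was -1.72 with calls pooled, -2.29 with 1 call per read and -37.8 in the first run. The cause of these changes was not tested, but the first run held few calls. The 6 h minus 0 h deviation of the window stayed between -8.08 and -5.67 points without single libraries. Same-letter libraries did not deviate together over 346 genes (correlations -0.165 to 0.00937), so no pairing by letter was seen. Genes with as few as 10 calls in a library have noisy levels, so a weak pairing could be missed. With the letter as a block 2 genes passed against 0 without it, and AY036118 was one of them (-9.33 points), which shares its 0 h libraries with the choice of the gene. The direction of the 6 h deviations of both genes and the window was kept under all alternatives run, and the share of calls kept its direction in both comparisons. Neither was computed within single sequencing runs. These deviations are taken from the library level. The level of Rn18s-rs5 itself at 6 h minus that at 0 h was 8.33, 3.63 and 1.19 points in the 3 sequencing runs. The fit with 1 call per read needed at least 3 reads in every library in place of 10 calls, and its count of genes was not run. Leaving out reads with at least 50% of their calls undeaminated was chosen after seeing the data. Depth limits AY036118 most, with 58 to 172 calls in an untreated library.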
